A study of Mus musculus with 16 samples.

Results

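The genes described here encode the collagens of the mouse dermis and the proteins that organise, crosslink and surround them. They were chosen by name, as a list of 36 genes. A gene was represented by the probe set, among those annotated to its symbol alone, with the highest mean over the 16 arrays, and it was kept when that probe set lay above a log2 value of 4 on 2 or more arrays. Of the 36 genes, 34 were kept, out of 12087 genes kept and 18194 genes with such a probe set in all. Fbn1 and Loxl2 were not analysed here, because no probe set was annotated to either symbol alone in the annotation used. All 34 kept genes are accounted for below.

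The dermis is a connective tissue made mainly by fibroblasts. Its strength comes from fibrils of type I and type III collagen, whose diameter is set in part by type V collagen and by small leucine-rich proteoglycans bound along the fibril surface. Its recoil comes from elastic fibres, an elastin core on a microfibril scaffold with fibulins at the interface. Secreted procollagens are trimmed outside the cell and then joined by lysyl oxidases, and injured skin lays down a provisional matrix rich in fibronectin, versican, tenascin-C and periostin.

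Whole dorsal skin was taken from female C57/B6 mice aged 8.5 weeks (the sample titles write C57/B7), before treatment at day 0 and again from treated skin at day 5. The day-5 groups were tofacitinib (3 arrays, mice 7, 8 and 9), ruxolitinib (2 arrays, mice 4 and 6) and DMSO, the vehicle alone (2 arrays, mice 2 and 3), and day 0 had 9 arrays (mice 1 to 9). Tofacitinib and ruxolitinib inhibit Janus kinases, the enzymes that pass cytokine receptor signals to STAT transcription factors. All of the day-5 skin had received daily topical applications over 4 days, and the labels give no dose. There was no untreated day-5 group, so the effect of the vehicle, of handling, of the earlier biopsy and of the elapsed days cannot be told apart in any comparison with day 0. One field of the labels for the tofacitinib array of mouse 7 names ruxolitinib, and the other fields, which were followed, name tofacitinib. Values are given on a log2 scale for each probe set, so a difference of 1 is a doubling. They can be compared between arrays for a gene but not between genes. The number of arrays limits the precision of every value.

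The day-0 array of mouse 1 stood apart. It was the lowest of the 9 day-0 arrays for 29 of the 34 genes, and its mean over the 34 genes was 6.07, against a median of 7.49 over the day-0 arrays. The median SD over the day-0 arrays was 0.68 for the matrix genes and 0.26 for all genes tested. Without mouse 1 these were 0.50 and 0.24. Lum, Fbln2, Fbln5 and Lox on the array of mouse 1, and Col14a1 at day 0 in mouse 6, lay at or below 2.43, the highest value among 27 control probe sets without a target, so the size of a difference that rests on those values is uncertain.

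Promoter sequences of 4 genes are shown as a reference for the genes the results turn on: Col1a2 and Col3a1 for the main fibrillar collagens, Fbln2 for the genes that were higher at day 5 and Tgfbi for those that were lower. Fbln2 and Tgfbi were chosen after their values were seen. Fbln2 was kept only through its day-5 arrays, as described below, so it had to be higher at day 5. Each is the 250 bases before the transcription start in the RefSeq annotation of GRCm38.p6, 5′ to 3′, and capitals mark a match to a searched motif.
Col1a2, chr6:4505368-4505617, plus strand: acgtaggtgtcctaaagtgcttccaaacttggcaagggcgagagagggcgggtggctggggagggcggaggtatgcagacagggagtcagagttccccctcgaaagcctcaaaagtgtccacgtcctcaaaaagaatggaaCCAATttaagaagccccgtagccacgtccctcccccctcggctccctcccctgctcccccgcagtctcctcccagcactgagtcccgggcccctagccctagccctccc
Col3a1, chr1:45311288-45311537, plus strand: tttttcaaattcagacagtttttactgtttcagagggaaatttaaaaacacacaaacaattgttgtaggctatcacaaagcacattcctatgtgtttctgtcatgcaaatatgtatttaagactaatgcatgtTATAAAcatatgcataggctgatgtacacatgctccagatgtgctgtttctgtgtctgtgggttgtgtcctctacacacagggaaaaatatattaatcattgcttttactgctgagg
Fbln2, chr6:91212514-91212763, plus strand: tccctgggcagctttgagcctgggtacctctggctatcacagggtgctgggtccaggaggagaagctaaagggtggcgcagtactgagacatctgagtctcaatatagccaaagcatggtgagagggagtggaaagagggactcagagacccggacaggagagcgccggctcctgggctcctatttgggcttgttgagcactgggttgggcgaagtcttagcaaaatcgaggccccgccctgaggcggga
Tgfbi, chr13:56609336-56609585, plus strand: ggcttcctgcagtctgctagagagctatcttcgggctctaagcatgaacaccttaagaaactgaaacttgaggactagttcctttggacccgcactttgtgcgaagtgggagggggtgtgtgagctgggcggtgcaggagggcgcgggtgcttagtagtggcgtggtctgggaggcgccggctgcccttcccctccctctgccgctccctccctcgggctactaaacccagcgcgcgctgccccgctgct

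The capitals are CCAAT in Col1a2, 109 to 105 bases before the start, and TATAAA in Col3a1, 117 to 112 bases before it. Of the 34 kept genes 22 were in the promoter table, with 27 promoters. On either strand, TATAAA was present in 6 of the 27 promoters and in 12.4% of all 32851 promoters of the same length. CCAAT was present in 5 of the 27 and in 33.8% of all. The STAT motif TTCNNNGAA was present in 1 of the 27, that of Dpt, and in 7.02% of all. The AP-1 motif TGANTCA was present in 1 of the 27, that of Col6a1, and in 6.75% of all. No match overlapped another in the printed windows, and a match describes letters only. The printed Fbln2 and Tgfbi windows held none of the 4 motifs.

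Many of the matrix genes were higher at day 5 than at day 0 in each treatment group, and Postn and Tgfbi were lower in each. In tofacitinib skin 20 of the 34 genes rose and 2 fell, where 22.7% of all genes tested rose and 27.4% fell. In ruxolitinib skin 19 rose and 2 fell, where 12.5% of all genes rose and 21.4% fell. In DMSO skin 13 rose and 2 fell, where 22.2% of all genes rose and 28.9% fell. The median change of the 34 genes was 1.38 for tofacitinib, 1.38 for ruxolitinib and 1.08 for DMSO on the log2 scale, against -0.02, -0.03 and -0.05 for all genes tested. The 3 comparisons share the same day-0 arrays. The genes that rose include Fbln2 in each group, and that gene was kept only through its day-5 arrays. A gene was called at an adjusted p under 0.05 in limma, with Benjamini-Hochberg adjustment over all 12087 genes, and all adjusted p-values below are from that fit. When each mouse was fitted as a fixed block, the ruxolitinib count was 12 of 34, all higher, where Postn and Tgfbi were no longer called. Without the ruxolitinib array of mouse 4 it was 9, and without that of mouse 6 it was 10. The DMSO count of 15 became 9 without the array of mouse 3. Without the day-0 array of mouse 1, the counts of genes called were 24 for tofacitinib, 23 for ruxolitinib and 18 for DMSO.

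Fn1, Lum, Fbln2, Fbln5 and Mfap5 were called in all 3 groups under every alternative and with any array left out, except that the filter at a log2 value of 6 left Fbln2 out of the test. Fbln2 was kept only through its day-5 arrays, as described below, so its calls are not taken as support for a rise. In tofacitinib skin Loxl1 and Ogn lost their calls when any 1 of the 3 tofacitinib arrays was left out, Pcolce without mouse 7 or mouse 8, and Eln without mouse 7. In ruxolitinib skin, where a group of 2 leaves 1 array, Bgn, Col5a2, Col6a2, Dpt, Fbln1, Fmod, Loxl1, Mfap4 and Ogn lost their calls without either array, Aspn and Dcn without mouse 6, and Pi16, Postn and Tgfbi without mouse 4. The fixed block also ended the ruxolitinib calls of Aspn, Bgn, Col5a2, Col6a2, Fbln1, Fmod, Loxl1 and Mfap4, and those of Col6a2, Fbln1 and Fmod were also lost with no filter and on leaving out single arrays of other groups. In DMSO skin Bgn, Dpt and Loxl1 lost their calls without either array, Col14a1 without mouse 2, and Dcn, Eln and Fmod without mouse 3. With the lowest probe set standing for a gene, Dcn was not called in ruxolitinib or DMSO skin, Loxl1 and Tgfbi were not called in ruxolitinib skin, and Bgn was not called in DMSO skin. Under that rule other genes gained a call: Lox in all 3 groups, Col1a2, Aspn and Fbln1 in tofacitinib skin, Col5a1 and Pcolce in ruxolitinib skin, and Col5a1 and Ogn in DMSO skin.

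**Figure D1:**
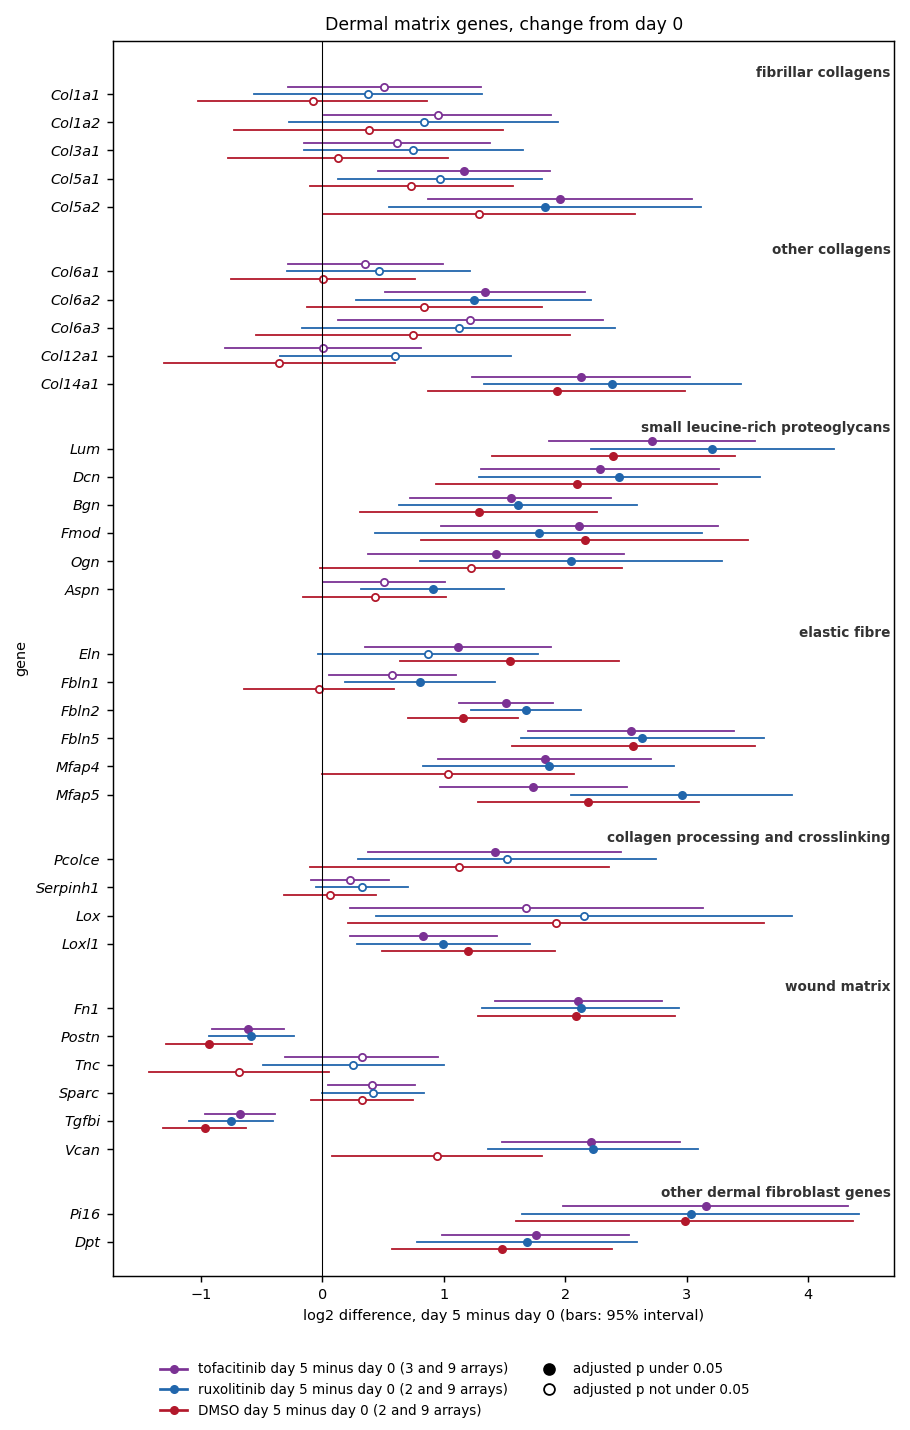
Log2 difference of each of the 34 genes (vertical axis, by role) between day 5 and day 0 for tofacitinib, ruxolitinib and DMSO skin, with 95% intervals from limma. Filled points had an adjusted p under 0.05. Points for the proteoglycans and for most elastic fibre genes lie right of 0, the intervals of Col1a1 and Col3a1 span it, and the points for Postn and Tgfbi lie left of it.

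Markers of other cell types were read over the same days. Of all genes, 22.7%, 12.5% and 22.2% rose in tofacitinib, ruxolitinib and DMSO skin, and 27.4%, 21.4% and 28.9% fell. Counts of called genes, for the markers and for the role groups below, are read against these shares. Nothing particular to a list is read from counts near them, such as those of the adipocyte and pericyte lists. The basal keratinocyte list, which includes the keratins Krt5 and Krt14, had 8 of 8 genes lower in each treatment group, and its mean lay between 11.22 and 11.49 in tofacitinib skin, 11.18 and 11.55 in ruxolitinib skin and 11.16 and 11.17 in DMSO skin, against 12.10 to 12.48 at day 0. Endothelial markers were higher for 10 of 10 genes in tofacitinib skin, 8 in ruxolitinib skin and 9 in DMSO skin. The mean of the endothelial list lay between 4.79 and 5.62 over the day-5 arrays, against 2.48 to 4.15 at day 0. Its group mean at day 0, 3.48, lay below the filter at 4, and the 2.48 of mouse 1 lay near the control level of 2.43. Some of these genes may have been kept mainly through their day-5 arrays, which was not checked. The counts and levels of the endothelial list are therefore not taken as support for a rise. Adipocyte markers had means of 10.66 to 11.17 over the day-5 arrays, against 5.84 to 10.41 at day 0, and 2, 1 and 1 of 6 genes passed in tofacitinib, ruxolitinib and DMSO skin. Skeletal muscle markers had means of 13.22 to 13.49 over the day-5 arrays, against 12.36 to 13.15 at day 0, and 8, 2 and 6 of 12 passed. The day-5 and day-0 arrays did not overlap for any of these 4 lists.

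The macrophage and pericyte lists overlapped between day 5 and day 0, and the fibroblast list did not. Macrophage markers had means of 7.11 to 7.87 over the day-5 arrays, against 5.83 to 7.33 at day 0, with 4, 4 and 5 of 8 genes higher in tofacitinib, ruxolitinib and DMSO skin. Pericyte and smooth muscle markers had means of 9.09 to 10.07, against 6.34 to 9.31, with 1, 1 and 2 of 7 genes higher and 1 lower in each group. Fibroblast identity markers, such as Pdgfra and Thy1, had means of 9.42 to 9.96, against 7.87 to 9.34, with 7, 4 and 3 of 10 genes higher and 1, 2 and 2 lower. The array of mouse 1 had the lowest mean of the 9 day-0 arrays for the fibroblast, pericyte, endothelial, macrophage, adipocyte and muscle lists, but not for either keratinocyte list. The difference between 3′ and 5′ probe sets of the transferrin receptor control was 2.23 to 4.62 over the day-5 arrays, against 1.40 to 2.42 at day 0. These ranges overlapped through tofacitinib mouse 9, at 2.23, and those of actin and Gapdh overlapped too. The day-0 array of mouse 1 had the largest actin and Gapdh differences of any array, at 2.09 and 1.47. The next largest were 2.03 for actin in mouse 5 and 1.06 for Gapdh in mouse 9, both at day 0. The transferrin receptor difference of mouse 1, at 2.04, lay within the range of the other day-0 arrays. The part of these markers, and of the control differences, in the matrix changes described below was not tested. In whole skin, fewer cells of a type and less RNA per cell cannot be told apart.

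**Figure D2:**
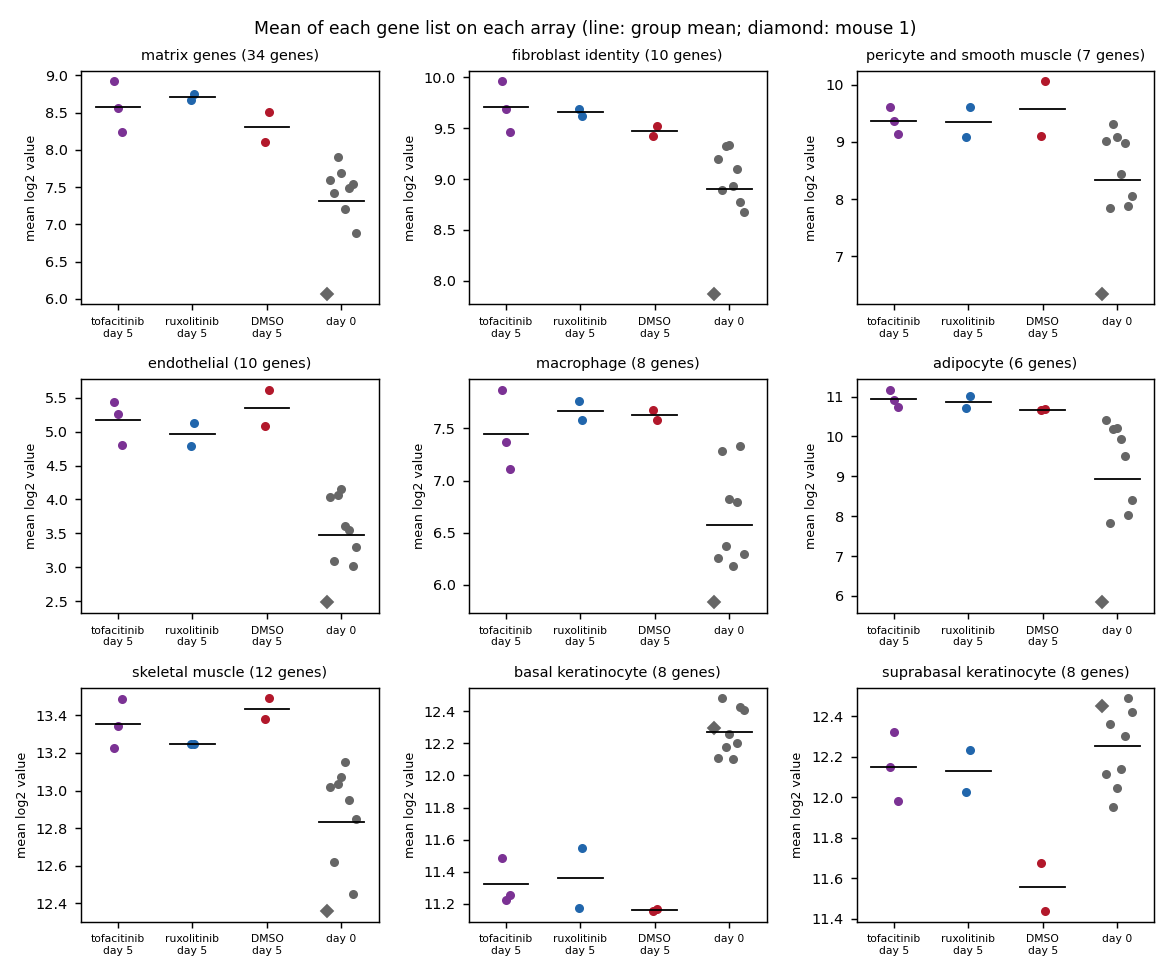
Mean log2 value of the 34 matrix genes and of 8 cell type marker lists on each array (points, with the mean of each group as a line), for tofacitinib, ruxolitinib and DMSO skin at day 5 and for day 0. The diamond is the day-0 array of mouse 1, which is lowest for the matrix genes at 6.07, and the basal keratinocyte list is the one with day-5 arrays below all day-0 arrays.

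The fibrillar collagens form the load-bearing fibrils. Of the 5 genes, 2 rose in tofacitinib skin, 1 in ruxolitinib skin and 0 in DMSO skin. Col1a1, the α1 chain of type I collagen, had 11.75, 11.47 and 10.85 in tofacitinib skin, 11.26 and 11.23 in ruxolitinib skin and 10.08 and 11.46 in DMSO skin, against a lowest, median and highest value of 9.64, 11.06 and 11.70 at day 0 (day-5 values here and below are in order of mouse number). These groups overlapped. The Col1a1 difference from day 0 was 0.51 ± 0.37 for tofacitinib, 0.38 ± 0.44 for ruxolitinib and -0.08 ± 0.44 for DMSO (log2, SE), with adjusted p of 0.266, 0.522 and 0.893 in limma. Col1a2, its α2 partner chain, differed by 0.95 ± 0.44, 0.84 ± 0.52 and 0.38 ± 0.52 in the same order, and missed the threshold in each. A second kept probe set gave larger differences for both chains of type I collagen, at 1.32, 0.99 and 0.70 for Col1a1 and 1.48, 1.38 and 1.04 for Col1a2. With the lowest probe set or the mean of probe sets standing for the gene, Col1a1 still missed the threshold in each group, and Col1a2 passed in tofacitinib skin. Col3a1, the chain of type III collagen, had 11.77, 11.47 and 11.19 in tofacitinib skin, 11.28 and 11.94 in ruxolitinib skin and 10.53 and 11.54 in DMSO skin, against 9.61, 11.05 and 11.53 at day 0 (lowest, median, highest). Its differences of 0.62 ± 0.36, 0.75 ± 0.42 and 0.13 ± 0.42 also missed the threshold. For Col1a1 the 95% interval in tofacitinib skin ran from -0.28 to 1.31, so a rise of up to that upper bound lies within the error.

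The type V chains, which nucleate and limit the fibrils, were the fibrillar collagens that passed. Col5a2 had 9.51, 8.81 and 8.08 in tofacitinib skin, 8.46 and 9.03 in ruxolitinib skin and 7.39 and 8.98 in DMSO skin, against 5.01, 6.94 and 8.03 at day 0 (lowest, median, highest). All tofacitinib and ruxolitinib arrays lay above all day-0 arrays, and DMSO mouse 2 lay among them. The gene was 3.88-fold higher in tofacitinib skin (adjusted p = 0.00597 in limma) and 3.57-fold higher in ruxolitinib skin (adjusted p = 0.0288), and in DMSO skin the difference was 1.29 ± 0.60 (adjusted p = 0.0848). A second kept Col5a2 probe set gave 0.32, 1.16 and 0.21 for the 3 groups, and the tofacitinib call was lost when the lower probe set stood for the gene. Col5a1 rose in tofacitinib skin (1.17 ± 0.33, adjusted p = 0.0101 in limma), and in ruxolitinib and DMSO skin it differed by 0.97 ± 0.39 and 0.73 ± 0.39.

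Among the other collagens, 2 of 5 rose in tofacitinib skin, 2 in ruxolitinib skin and 1 in DMSO skin. Col14a1, a collagen that sits on fibril surfaces and regulates their growth, had 5.99, 6.05 and 5.23 in tofacitinib skin, 6.34 and 5.67 in ruxolitinib skin and 5.86 and 5.48 in DMSO skin, against 2.41, 3.84 and 4.85 at day 0 (lowest, median, highest). Every day-5 array lay above every day-0 array. It was 4.39-fold higher in tofacitinib skin, 5.23-fold in ruxolitinib skin and 3.81-fold in DMSO skin (adjusted p of 0.00098, 0.00218 and 0.00527 in limma). Fitting each mouse as a fixed block ended the DMSO call (adjusted p up to 0.0673 over the alternatives). Type VI collagen forms beaded filaments around cells, and its 3 chains differed in size. Col6a2 rose in tofacitinib skin (1.34 ± 0.38) and ruxolitinib skin (1.25 ± 0.45), and its DMSO difference was 0.84 ± 0.45. Col6a3 differed by 1.22 ± 0.51, 1.12 ± 0.60 and 0.75 ± 0.60, and Col6a1 by 0.35 ± 0.30, 0.46 ± 0.35 and 0.01 ± 0.35, with none of these past the threshold. Col12a1, a fibril-associated collagen of tissues under tension, differed by 0.00 ± 0.38, 0.60 ± 0.45 and -0.35 ± 0.45, also short of it.

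The small leucine-rich proteoglycans bind collagen fibrils and regulate their assembly, and 5 of 6 rose in tofacitinib skin, 6 in ruxolitinib skin and 4 in DMSO skin. Lum (lumican) had 7.25, 6.69 and 6.18 in tofacitinib skin, 6.70 and 7.66 in ruxolitinib skin and 6.68 and 6.21 in DMSO skin, against 2.41, 4.10 and 4.92 at day 0 (lowest, median, highest). The day-5 and day-0 arrays did not overlap. Lum was 6.57-fold higher in tofacitinib skin, 9.26-fold in ruxolitinib skin and 5.27-fold in DMSO skin (adjusted p of 0.000102, 0.000178 and 0.000891 in limma). Dcn (decorin) had 10.39, 9.96 and 10.23 in tofacitinib skin, 10.22 and 10.53 in ruxolitinib skin and 9.92 and 10.22 in DMSO skin, against 5.74, 8.14 and 8.74 at day 0. It too was separated on every array, and it was 4.87-fold, 5.45-fold and 4.27-fold higher in the 3 groups.

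The remaining proteoglycans moved less evenly. Bgn (biglycan) rose by 1.55 ± 0.39 in tofacitinib skin, 1.61 ± 0.46 in ruxolitinib skin and 1.29 ± 0.46 in DMSO skin. Fmod (fibromodulin) rose by 2.12 ± 0.53, 1.78 ± 0.63 and 2.16 ± 0.63, and its 2 DMSO arrays lay far apart, at 8.29 and 10.14. Without DMSO mouse 3 the Fmod call in DMSO skin was lost. Ogn (osteoglycin, also called mimecan) rose in tofacitinib skin (1.43 ± 0.49) and ruxolitinib skin (2.05 ± 0.58), and its DMSO difference was 1.23 ± 0.58. Aspn (asporin) rose in ruxolitinib skin (0.91 ± 0.28, adjusted p = 0.0203 in limma), and its differences in tofacitinib and DMSO skin were 0.51 ± 0.23 and 0.43 ± 0.28. Leaving out the day-0 array of mouse 1 brought Ogn past the threshold in DMSO skin too, at 0.99 ± 0.37 (adjusted p = 0.0390 in limma). With each mouse as a fixed block, the Ogn difference in DMSO skin was 0.44 ± 0.42 and did not pass (adjusted p = 0.441 in limma). Within DMSO mouse 3 the Ogn difference was -0.02.

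**Figure D3:**
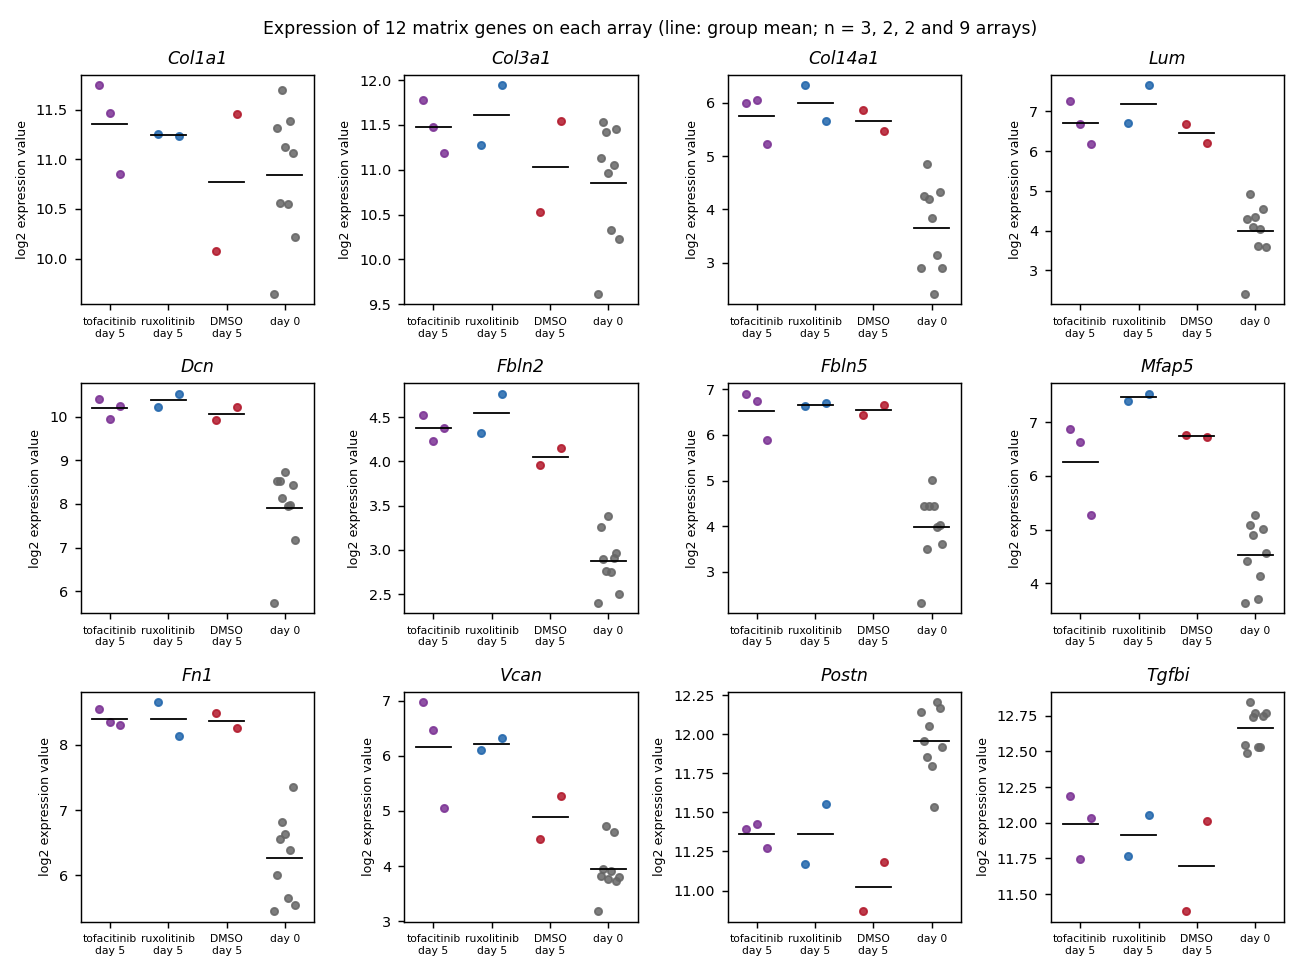
Log2 expression value of 12 matrix genes on each array, by group (tofacitinib, ruxolitinib and DMSO skin at day 5, then day 0), with the mean of each group as a line. Col1a1 and Col3a1 overlap between day 5 and day 0, Lum, Dcn, Col14a1, Fbln2, Fbln5 and Fn1 lie higher on every day-5 array, and Tgfbi lies lower on every day-5 array. The vertical scales differ between genes.

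Of the 6 elastic fibre genes, 5 rose in tofacitinib skin, 5 in ruxolitinib skin and 4 in DMSO skin. Fbln2 (fibulin-2), a glycoprotein that links elastic fibres and basement membranes, had 4.52, 4.23 and 4.38 in tofacitinib skin, 4.32 and 4.77 in ruxolitinib skin and 3.96 and 4.15 in DMSO skin, against 2.41, 2.90 and 3.38 at day 0 (lowest, median, highest). Every day-0 value of Fbln2 lay below the filter at 4, so the gene was kept only through its day-5 arrays and had to differ. All day-5 arrays were above all day-0 arrays, and the differences were 1.51 ± 0.18, 1.68 ± 0.21 and 1.16 ± 0.21 (adjusted p of 1.72e-05, 6.15e-05 and 0.000562 in limma). Fbln5 (fibulin-5), which is needed to assemble elastic fibres in mice, had 6.90, 6.74 and 5.89 in tofacitinib skin, 6.63 and 6.69 in ruxolitinib skin and 6.44 and 6.64 in DMSO skin, against 2.33, 4.02 and 5.01 at day 0. It was 5.83-fold higher in tofacitinib skin, 6.22-fold in ruxolitinib skin and 5.91-fold in DMSO skin. Mfap5, a microfibril glycoprotein, had 6.88, 6.64 and 5.27 in tofacitinib skin, 7.39 and 7.53 in ruxolitinib skin and 6.75 and 6.71 in DMSO skin, against 3.64, 4.56 and 5.27 at day 0. Tofacitinib mouse 9 lay just above the highest day-0 array and the other day-5 arrays lay well above it. The Mfap5 rise was 1.74 ± 0.36, 2.96 ± 0.43 and 2.19 ± 0.43 in the 3 groups.

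Eln (elastin), the core of the fibre, had 6.73, 6.05 and 6.0 in tofacitinib skin, 6.21 and 5.98 in ruxolitinib skin and 6.61 and 6.88 in DMSO skin, against 3.65, 5.50 and 5.99 at day 0 (lowest, median, highest). It rose in tofacitinib skin (1.12 ± 0.36) and DMSO skin (1.54 ± 0.42), and in ruxolitinib skin it differed by 0.87 ± 0.42 (adjusted p = 0.123 in limma). Mfap4, a microfibril-associated protein that binds elastin, rose in tofacitinib skin (1.83 ± 0.41) and ruxolitinib skin (1.86 ± 0.49), and differed by 1.03 ± 0.49 in DMSO skin. Fbln1 (fibulin-1) rose in ruxolitinib skin (0.80 ± 0.29, adjusted p = 0.0443 in limma), and differed by 0.58 ± 0.25 in tofacitinib skin and -0.03 ± 0.29 in DMSO skin. The Fbln1 call was lost when each mouse was fitted as a fixed block and on leaving out any of several arrays, the day-0 array of mouse 1 among them.

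Of the 4 genes that process or crosslink collagen, 2 rose in tofacitinib skin, 1 in ruxolitinib skin and 1 in DMSO skin. Loxl1, a lysyl oxidase needed for elastic fibre upkeep in mice, had 6.02, 6.0 and 5.66 in tofacitinib skin, 6.12 and 6.08 in ruxolitinib skin and 6.27 and 6.29 in DMSO skin, against 3.72, 5.23 and 5.70 at day 0 (lowest, median, highest). Only tofacitinib mouse 9 overlapped with day 0. The rise was 0.83 ± 0.28, 1.0 ± 0.33 and 1.20 ± 0.33 in the 3 groups (adjusted p of 0.0246, 0.0319 and 0.00833 in limma). Lox, which crosslinks both collagen and elastin, had 6.84, 6.36 and 6.46 in tofacitinib skin, 7.07 and 7.10 in ruxolitinib skin and 6.68 and 7.19 in DMSO skin, against 1.99, 5.48 and 6.06 at day 0. Every day-5 array exceeded every day-0 array, and the differences of 1.68 ± 0.68, 2.15 ± 0.80 and 1.93 ± 0.80 narrowly missed the threshold (adjusted p of 0.0518, 0.0505 and 0.0575 in limma). The value of 1.99 was that of mouse 1. Without that array Lox was higher by 1.35 ± 0.46, 1.83 ± 0.54 and 1.60 ± 0.54, and passed in all 3 comparisons (adjusted p of 0.0264, 0.0186 and 0.0239). With each mouse as a fixed block, the Lox differences were 1.92 ± 0.47, 1.85 ± 0.57 and 0.91 ± 0.57. In that fit Lox passed in tofacitinib skin only (adjusted p of 0.0189, 0.0812 and 0.252 in limma).

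Pcolce, an enhancer of procollagen C-proteinase, rose in tofacitinib skin (1.42 ± 0.49, adjusted p = 0.0255 in limma) and differed by 1.52 ± 0.58 in ruxolitinib skin and 1.13 ± 0.58 in DMSO skin. Without mouse 1 it passed in each group, at 1.16 ± 0.27, 1.26 ± 0.32 and 0.87 ± 0.32. Serpinh1 (HSP47), the collagen chaperone of the endoplasmic reticulum, differed by 0.23 ± 0.15, 0.33 ± 0.18 and 0.06 ± 0.18, and missed the threshold in each group.

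The wound matrix genes went in different directions. Of the 6, 2 rose and 2 fell in tofacitinib skin, 2 rose and 2 fell in ruxolitinib skin, and 1 rose and 2 fell in DMSO skin. Several of these counts lie near the shares of all genes given above, and nothing particular to the group is read from them. Fn1 (fibronectin), the first scaffold laid down by fibroblasts in repair, had 8.54, 8.34 and 8.30 in tofacitinib skin, 8.65 and 8.14 in ruxolitinib skin and 8.48 and 8.25 in DMSO skin, against 5.46, 6.38 and 7.35 at day 0 (lowest, median, highest). No day-5 array fell among the day-0 arrays, and the rise was 4.32-fold, 4.37-fold and 4.27-fold in the 3 groups (adjusted p of 0.000143, 0.000751 and 0.000522 in limma). Vcan (versican), a large hyaluronan-binding proteoglycan, had 6.98, 6.47 and 5.05 in tofacitinib skin, 6.10 and 6.33 in ruxolitinib skin and 4.49 and 5.28 in DMSO skin, against 3.18, 3.81 and 4.73 at day 0. Its rise was 4.63-fold in tofacitinib skin and 4.70-fold in ruxolitinib skin, and in DMSO skin, where mouse 2 lay within the day-0 range, the difference was 0.94 ± 0.41 (adjusted p = 0.0640 in limma).

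Tgfbi, a secreted adhesion protein induced by TGF-β, had 12.19, 11.74 and 12.03 in tofacitinib skin, 11.77 and 12.05 in ruxolitinib skin and 11.38 and 12.01 in DMSO skin, against 12.49, 12.74 and 12.85 at day 0 (lowest, median, highest). It was the gene of the 34 with all day-5 arrays below all day-0 arrays. It fell 1.60-fold in tofacitinib skin, 1.68-fold in ruxolitinib skin and 1.96-fold in DMSO skin (adjusted p of 0.00114, 0.00273 and 0.000271 in limma). Postn (periostin), a matricellular protein that binds collagen, had 11.39, 11.42 and 11.27 in tofacitinib skin, 11.17 and 11.55 in ruxolitinib skin and 10.87 and 11.18 in DMSO skin, against 11.54, 11.96 and 12.21 at day 0. Ruxolitinib mouse 6 lay level with the lowest day-0 array and the others lay below all of them. Its fall was 1.53-fold, 1.5-fold and 1.90-fold in the 3 groups, and the ruxolitinib falls of Postn and Tgfbi did not pass when each mouse was fitted as a fixed block. Tnc (tenascin-C), an anti-adhesive glycoprotein of healing wounds, differed by 0.32 ± 0.30, 0.26 ± 0.35 and -0.69 ± 0.35, and Sparc, a collagen-binding matricellular protein, by 0.41 ± 0.17, 0.42 ± 0.20 and 0.32 ± 0.20. Neither passed in any group.

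The other 2 genes are fibroblast products and both rose in each group. Pi16, which marks a fibroblast population found in many mouse tissues, had 9.59, 9.85 and 9.72 in tofacitinib skin, 10.03 and 9.33 in ruxolitinib skin and 10.02 and 9.17 in DMSO skin, against 4.14, 7.03 and 7.71 at day 0 (lowest, median, highest). It was 8.92-fold, 8.18-fold and 7.92-fold higher, and its other kept probe set gave 1.44, 2.01 and 1.69 on the log2 scale where the one used gave 3.16, 3.03 and 2.99. Dpt (dermatopontin), a decorin-binding protein of the dermal matrix, had 12, 11.83 and 11.89 in tofacitinib skin, 11.86 and 11.89 in ruxolitinib skin and 11.79 and 11.55 in DMSO skin, against 8.35, 10.34 and 10.88 at day 0. Its rise was 1.76 ± 0.36, 1.69 ± 0.43 and 1.48 ± 0.43.

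Each of 7 mice gave an array on both days, so the change could be read within the animal. Of the 34 genes 19 were higher at day 5 in all 7 mice and 1, Tgfbi, was lower in all 7, where 17% of all genes tested were higher and 24.1% lower in all 7. By role the 19 were 5 of 6 proteoglycans, 5 of 6 elastic fibre genes, 3 of 4 processing genes, 2 of 6 wound matrix genes, 1 of 5 fibrillar collagens, 1 of 5 other collagens and both other fibroblast genes. Over groups, 11 of the 34 genes had all 7 day-5 arrays above all 9 day-0 arrays and 1 had them all below, where 8.48% and 14.4% of all genes did. Both the 19 and the 11 include Fbln2, which was kept only through its day-5 arrays. The median within-mouse difference of the 34 genes was 1.59, 1.02 and 1.32 in tofacitinib mice 7, 8 and 9, 0.67 and 1.36 in ruxolitinib mice 4 and 6, and 0.43 and 1.22 in DMSO mice 2 and 3. The medians were lowest in DMSO mouse 2 and ruxolitinib mouse 4. Col1a1 was higher at day 5 in 5 of 7 mice and lower in mice 2 and 4, with differences from -1.24 to 0.90. The largest within-mouse difference over the 34 genes was that of Lum in ruxolitinib mouse 6, at 4.05.

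**Figure D4:**
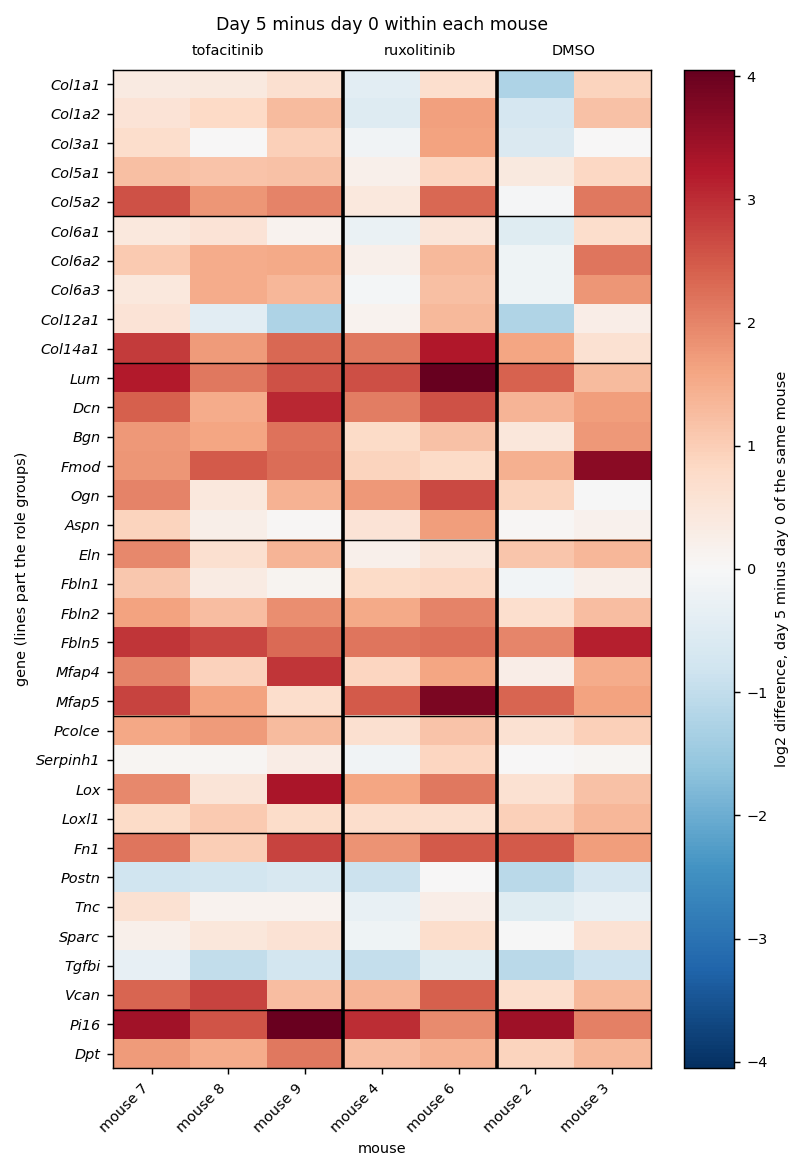
Log2 difference between day 5 and day 0 within each of the 7 mice with both arrays (columns, by treatment) for the 34 genes (rows, by role), red where day 5 was higher and blue where it was lower. Lum, Dcn, Fbln5, Fn1 and Pi16 are red in all 7 mice, Tgfbi is blue in all 7, and Col1a1 is blue in ruxolitinib mouse 4 and DMSO mouse 2.

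For genes outside the list that act on the same matrix, counts are read against the share of all genes called: 22.7% higher and 27.4% lower in tofacitinib skin, 12.5% and 21.4% in ruxolitinib skin, and 22.2% and 28.9% in DMSO skin. Several counts lie near these shares, and nothing particular to a list is read from them. Of 15 tested genes for collagen hydroxylation, folding and cleavage, 5 rose and 4 fell in tofacitinib skin, 3 rose and 5 fell in ruxolitinib skin, and 6 rose and 5 fell in DMSO skin. Pcolce2, a second enhancer of procollagen C-proteinase, rose by 2.36 ± 0.26, 2.09 ± 0.31 and 1.99 ± 0.31. P3h2, a prolyl 3-hydroxylase of collagen, fell by 2.11, 1.75 and 1.94 on the log2 scale, and P3h4, a partner of lysyl hydroxylation in the endoplasmic reticulum, fell by 1.59, 2.15 and 2.43. Both were lower on every day-5 array than on any day-0 array.

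Of 17 tested basement membrane genes, 8 rose and 7 fell in tofacitinib skin, 5 rose and 6 fell in ruxolitinib skin, and 7 rose and 7 fell in DMSO skin. The genes with the smallest p were lower at day 5. Col17a1, the hemidesmosome collagen of basal keratinocytes and also a member of the basal keratinocyte list, fell by 1.21, 1.15 and 1.25, Lama3, a laminin chain of the epidermal basement membrane, fell by 1.90, 1.70 and 2.04, and Agrn (agrin) fell by 0.91, 0.64 and 1.18. Of 25 further matrix proteins, 10 rose and 7 fell in tofacitinib skin, 8 rose and 7 fell in ruxolitinib skin, and 4 rose and 7 fell in DMSO skin. Emilin2, a glycoprotein of the elastic fibre family of EMILINs, rose by 2.91 ± 0.35, 3.21 ± 0.42 and 2.89 ± 0.42. Col16a1, a fibril-associated collagen, fell by 1.62, 1.98 and 2.24, and Ecm1, an extracellular matrix protein of skin, fell by 1.03, 1.19 and 1.43. The median change was -0.05, -0.20 and -0.07 for the first of these lists, 0.42, 0.39 and 0.48 for the second and 0.37, 0.60 and 0.30 for the third.

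At day 5 the inhibitors were compared with the vehicle. None of the 34 genes passed in any of the comparisons: 0 for tofacitinib against DMSO (0.165% of all genes called in either direction), 0 for ruxolitinib against DMSO (0.521%) and 0 for both inhibitors together against DMSO (0.935%). At an unadjusted p under 0.05 in limma there were 2 genes for tofacitinib (Tnc and Vcan, with 8.4% of all genes), 2 for ruxolitinib (Fbln1 and Vcan, with 15.7%) and 3 for both together (Fbln1, Tnc and Vcan, with 13.9%). The median difference of the 34 genes was 0.29 for tofacitinib, 0.40 for ruxolitinib and 0.33 for both, against 0.01, 0.00 and 0.01 for all genes, and 28, 31 and 30 of the 34 were positive. These comparisons share the same 2 DMSO arrays, of which mouse 2 had the lowest mean over the 34 genes of any day-5 array, at 8.11, where the other day-5 arrays had 8.24 to 8.92.

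Vcan had an unadjusted p under 0.05 for each inhibitor and for both together. Of 8 probe sets annotated to Vcan alone, 1 passed the filter, and the Vcan values rest on that probe set. With the values given above, both ruxolitinib arrays and tofacitinib mice 7 and 8 lay above both DMSO arrays, and tofacitinib mouse 9 lay between them. The difference was 1.27 ± 0.48 for tofacitinib, 1.29 ± 0.53 for ruxolitinib and 1.28 ± 0.44 for both (adjusted p of 0.402, 0.249 and 0.196 in limma). When each mouse was fitted as a fixed block, the difference for both was 1.01 ± 0.48 for Vcan. Col14a1 (1.38 ± 0.46), Ogn (1.31 ± 0.50) and Lum (1.16 ± 0.51) had larger positive ones, none past the threshold. Some genes went the other way in that fit, such as Fmod for ruxolitinib against DMSO, at -1.72 ± 0.66. Without tofacitinib mouse 9 the difference for both was 1.58 and Vcan passed (adjusted p = 0.0327). Tnc had 7.08, 6.31 and 5.94 in tofacitinib skin and 6.85 and 5.96 in ruxolitinib skin, against 5.05 and 5.75 in DMSO skin. Each inhibitor array lay above both DMSO arrays, but the share of all genes that separate in this way was not computed. The Tnc difference for both inhibitors was 0.98 ± 0.38 (adjusted p = 0.257 in limma). Fbln1 had 7.28, 6.42 and 5.92 in tofacitinib skin and 7.05 and 6.46 in ruxolitinib skin, against 5.75 and 6.08 in DMSO skin, a difference of 0.72 ± 0.32 (adjusted p = 0.325).

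For the main collagens the intervals of the inhibitor difference were wide. Col1a1 differed from DMSO by 0.59 in tofacitinib skin (95% interval -0.53 to 1.71) and by 0.46 in ruxolitinib skin (-0.77 to 1.68). Col3a1 differed by 0.48 (-0.59 to 1.56) and 0.62 (-0.56 to 1.79). Fn1 differed by 0.02 (-0.95 to 0.98) and 0.03 (-1.02 to 1.09). With 2 or 3 arrays per group, the intervals do not exclude differences of up to those bounds. Eln was among the genes with a lower mean in inhibitor skin, at -0.43 (-1.50 to 0.65) for tofacitinib and -0.67 (-1.85 to 0.50) for ruxolitinib.

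**Figure D5:**
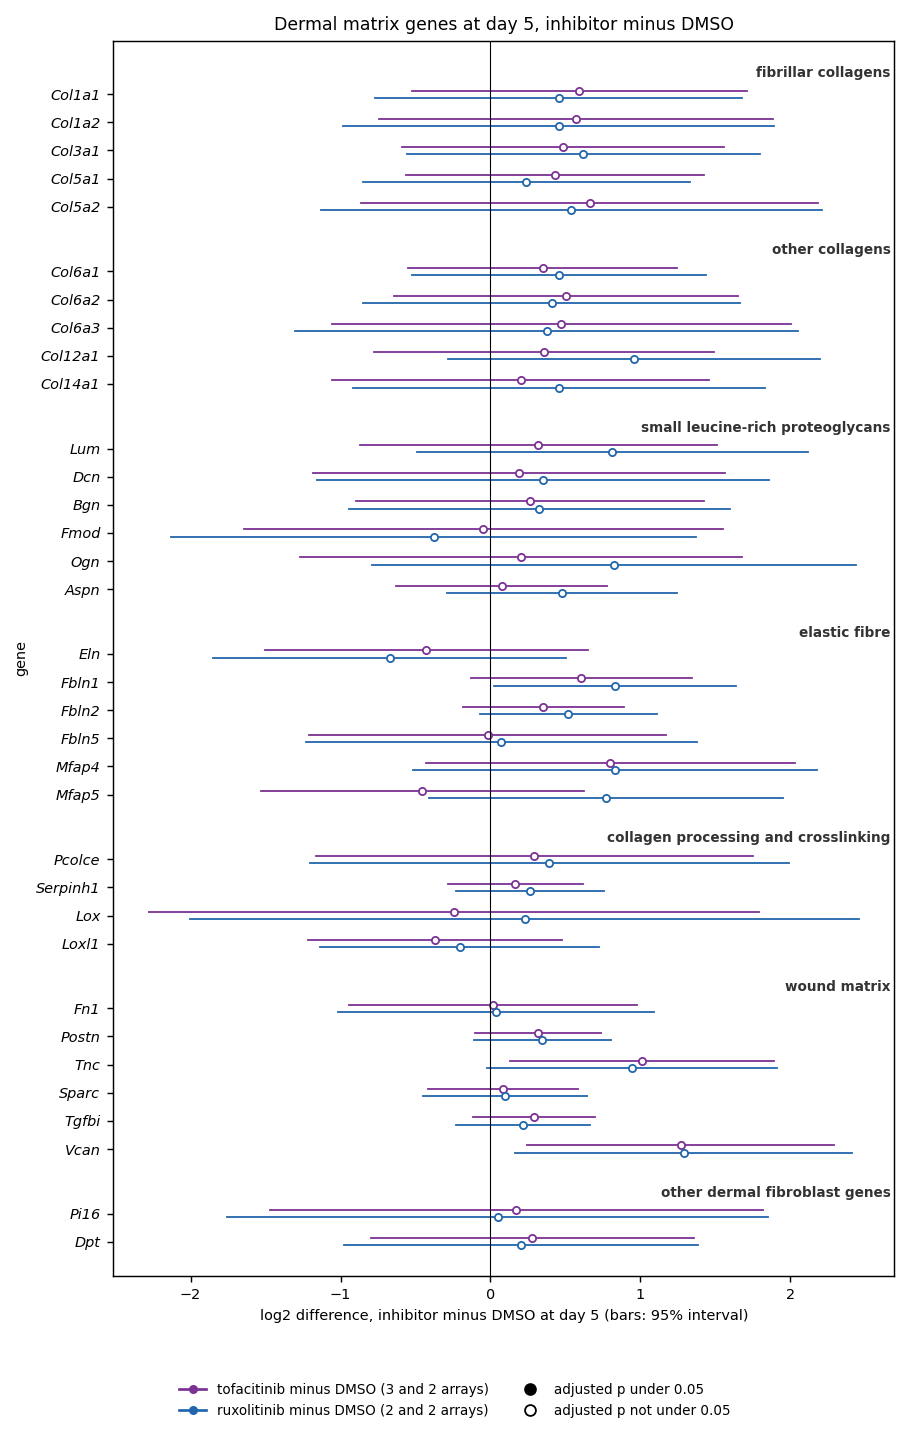
Log2 difference of each of the 34 genes (vertical axis, by role) between inhibitor and DMSO skin at day 5, with 95% intervals from limma, for tofacitinib and ruxolitinib. All points are open, since 0 of the 34 genes had an adjusted p under 0.05, and most lie right of 0, with Vcan and Tnc among the farthest.

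Of the listed genes outside the 34, Mfap2, a microfibril glycoprotein, and Krt1, a keratin of suprabasal epidermis, passed for both inhibitors against DMSO, by 1.03 ± 0.23 (adjusted p = 0.0480 in limma) and 0.68 ± 0.14 (adjusted p = 0.0436). Against day 0, Mfap2 differed by 0.84 in tofacitinib skin, 1.06 in ruxolitinib skin and -0.08 in DMSO skin. The suprabasal keratinocyte list had means of 11.98 to 12.32 in tofacitinib skin and 12.03 to 12.23 in ruxolitinib skin, against 11.44 and 11.68 in DMSO skin. The list did not overlap between inhibitor and DMSO skin, but how often lists separate on so few arrays was not computed. Of its 8 genes, 2 fell against day 0 in tofacitinib skin, 0 in ruxolitinib skin and 5 in DMSO skin. Its part in the matrix values was not tested.

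Tofacitinib and ruxolitinib, 2 Janus kinase inhibitors of different structure, were compared as 1 pair, at the same day and at doses that the labels do not give. None of the 34 genes passed (0.0248% of all genes did), and 1, Mfap5, had an unadjusted p under 0.05 in limma, where 5.67% of all genes did. Mfap5 had 6.88, 6.64 and 5.27 in tofacitinib skin, against 7.39 and 7.53 in ruxolitinib skin. The difference was -1.22 ± 0.51 (95% interval -2.30 to -0.14, adjusted p = 0.838 in limma). The 2 groups did not overlap, but the share of all genes that separate on so few arrays was not computed. The median difference of the 34 genes was -0.05, with a range of -1.22 to 0.33 and 12 of 34 positive, against a median of 0.03 for all genes. Vcan, which rose in both inhibitor groups, differed between them by -0.02 (95% interval -1.05 to 1.01), and Fn1 by -0.02 (-0.98 to 0.94). Lum differed by -0.49 (-1.68 to 0.69) and Col1a1 by 0.14 (-0.98 to 1.25). Intervals of this width do not show that the compounds act alike.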

How the data were processed

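Whole-skin RNA was amplified, biotin-labelled and hybridised to Affymetrix mouse arrays, per the labels' protocols. The authors deposited a log2 value for each probe set, made with GCRMA per the submitters' processing notes, which corrects background, normalizes across arrays and summarises probes. Its version is not given in the sources used here, nor is whether the arrays were normalized as 1 set. Of 45101 probe sets, 34958 had 1 gene symbol in the platform annotation, and array medians lay between 3.75 and 3.94. No pair of arrays held identical values.

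Genes were filtered and chosen as described above, which left 12087. limma 3.58.1 in R 4.3.3 fitted 4 group means to the 16 arrays. Mouse was a random block, with a consensus correlation of 0.0982 from duplicateCorrelation. Variances were moderated by empirical Bayes, with 12 residual degrees of freedom and 2.86 from the prior. Benjamini-Hochberg adjustment ran over all genes within each of 7 comparisons, at a threshold of 0.05. Errors are standard errors and intervals are 95% intervals of that fit. Folds are powers of 2 of the log2 difference. The alternatives were the mouse as a fixed block, no block, only the groups compared, other filters and probe set rules, arrays centred on their medians, another prior, a minimum change of 1 log2 unit, and leaving out each array. The fit was also run on simulated data, with genes drawn independently and changes planted in the tofacitinib group only. That run covered tofacitinib against day 0, so it does not bear on the other comparisons.

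Both biopsies came from the same animal per the labels, so the mouse numbers pair the samples. As a check, each mouse's day-5 and day-0 arrays, less their group means, correlated at -0.18 to 0.18, over 0.1 in 2 of 7 pairs. With the fixed replicate block the ruxolitinib count against day 0 was 12 and the DMSO count was 15.

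Every kept gene of the list is named, per sample for those with the smallest p in each role group and for others the text turns on. From each further matrix list the 3 called genes with the smallest p for tofacitinib against day 0 are named. The genes and lists were chosen with earlier results of these data known. The 21 genes with more than 1 kept probe set were checked: 3 (Col5a2, Fmod and Pi16) had another probe set over 1 log2 unit away for tofacitinib against day 0, and 0 had one of the other sign.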

Additional observations from a re-analysis of the deposited data

Results flagged for a closer look

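In 4 of 34 genes the lowest of the 9 day-0 arrays lay far from the rest by Dixon's test at the 95% level, and all 4 were the array of mouse 1. Chance gives about 1 in 20 for independent genes, and genes read on the same array are not independent. The test was run on the 34 genes only, so the share over all genes is not known. Ogn had 6.58 there, and the next lowest day-0 array had 8.33. Pcolce had 5.99, next to 7.83. Loxl1 had 3.72, next to 4.91. Dpt had 8.35, next to 9.76. The same array had the lowest mean of the adipocyte markers, at 5.84, and of the pericyte and smooth muscle markers, at 6.34. Its control differences for actin and Gapdh, described above, were the largest of any array, at 2.09 and 1.47. That for the transferrin receptor, at 2.04, was not. The part of these markers and control differences in the flagged values was not tested. Mouse 1 has no day-5 array, so no within-mouse difference includes it.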

How the results depend on the processing

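For tofacitinib against day 0 the count of 22 genes stayed within 1.5 times under every alternative run, with 18 to 27. For ruxolitinib against day 0 the count of 21 became 12 with the mouse as a fixed replicate block, and leaving out each array gave 9 to 23, with 9 without ruxolitinib mouse 4 and 10 without mouse 6. For DMSO against day 0 the count of 15 was unchanged by the fixed block, and leaving out each array gave 9 to 18, with 9 without DMSO mouse 3 and 11 without mouse 2. For both inhibitors against DMSO the count of 0 became 1, Vcan, without tofacitinib mouse 9, a range of 0 to 1 over the arrays left out. The other day-5 comparisons stayed at 0 under every alternative run. Leaving out arrays reduces the samples in a group, in 2-array groups to 1, whose spread is then taken from the other groups. The cause of the other changes was not tested. No result changed direction past the threshold. Centring arrays on their medians would move day 5 against day 0 by 0.07 to 0.10 log2 units, since array medians differed by -0.07 for tofacitinib, -0.07 for ruxolitinib and -0.10 for DMSO. Values near the control level of 2.43 limit the size of the rises of Lum, Fbln2, Fbln5, Lox and Col14a1.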
